A study of Homo sapiens with 4 samples.

Results

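The solute carriers of the kidney tubule are membrane proteins that move sugars, amino acids, phosphate, acid and base equivalents, organic ions, carboxylates and metals across the apical and basolateral faces of the tubule cell. A list of 57 solute carrier genes, 4 of them for carriers inside the cell, was followed through RNA recovered with PARP1. PARP1 is a nuclear ADP-ribosylating enzyme of the DNA damage response that also binds RNA. The genes were chosen by symbol, and all 57 matched 1 gene each among 19922 protein-coding genes of the GENCODE release 29 annotation (GRCh38). The cells were HK-2, an immortalised line from human proximal tubule epithelium. The series holds 4 samples of this line with no treatment named, which are 2 PARP1 immunoprecipitations (IP 1 and IP 2), made with a Flag antibody, and 2 inputs. The labels name no control IP and do not say whether a tagged PARP1 was introduced. The inputs were not analysed here. Separate cultures are not named for the IPs, and the spread seen between IP 1 and IP 2 can be technical.

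In a proximal tubule cell, carriers of the apical brush border take solutes out of the filtrate, many of them by using the sodium gradient, and carriers of the basolateral membrane pass them on to the blood or draw organic ions in for secretion. Several amino acid carriers work as pairs of a heavy chain, which brings the complex to the membrane, and a light chain, which does the transport. Cultured tubule lines are known to lose part of the carrier set of the tissue.

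Each IP is given as a list of sites. A site is 1 base on 1 strand, with its tags (sequenced reads), how many of them are mutated at the base, the authors' false discovery rate (FDR), a region and a gene. IP 1 listed 166248 sites and IP 2 listed 229782, with a median of 2 tags and at least 2 mutated tags a site in both. A gene is called named here when a list assigns it at least 1 site on its own strand (a sense site). A gene with no site can still have been read, because only mutated bases are listed. With no input values and no control IP, neither the transcription of a gene nor background recovery is separated from its number of sites. There was therefore no comparison between conditions to test, and the values below are descriptions, with exact (Clopper-Pearson) 95% intervals that cover counting error only. Marker genes of the labelled tissue and of other cells were counted in the same way, and expression was not measured here. Of 10 proximal tubule genes 5 (50%) were named in both IPs, against 50.8% of all protein-coding genes, among them the lineage factor PAX8 with 23 and 21 sense sites in IP 1 and IP 2, while AQP1 and ANPEP were among those named in neither. Of 15 markers of other kidney cells, 2 were named in both (PECAM1 and VWF, of endothelium, with 2 and 2 and with 2 and 4 sites), and of 6 genes of epithelial cells in culture 5 were. These are 13.3% and 83.3%, against the same 50.8%.

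Of the 57 carriers, 35 (61.4%, interval 47.6 to 74.0) were named in both IPs, against 50.8% of all protein-coding genes. By IP, 41 were named in IP 1 (71.9%, interval 58.5 to 83.0), against 57.2% of all protein-coding genes, and 39 in IP 2 (68.4%, interval 54.8 to 80.1), against 61.1%. There were 6 named in IP 1 only, 4 in IP 2 only and 12 (21.1%) in neither, against 32.5% in neither among all protein-coding genes. The carriers held 341 sense sites in IP 1 and 488 in IP 2, with 909 and 1333 tags over them. The median carrier had 3 sites in IP 1 and 5 in IP 2, while 1 and 2 were the medians of all protein-coding genes. Per 10 kb of annotated span the median was 0.49 and 0.60 sites for the carriers and 0.27 and 0.41 for all protein-coding genes. These medians are not matched for span, and genes with no site enter them as 0. Among all protein-coding genes under 20 kb, 56.9% were named in neither IP. Ranked by density among protein-coding genes of similar span, most carriers lay below the middle in each IP.

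Span went with these counts, and the carriers were longer than most genes, with a median span of 53875 bases against 27151.5. Under 20 kb, 5 of 11 carriers (45.5%) were named in both IPs, against 22.3% of protein-coding genes of that span. From 20 to 50 kb the count was 8 of 17 (47.1%), against 60.5%. From 50 to 100 kb it was 10 of 16 (62.5%), against 74.1%, and at 100 kb and over it was 12 of 13 (92.3%), against 84.4%. Named in neither were 3 of 11, 6 of 17, 3 of 16 and 0 of 13 in these classes, against 56.9%, 21.3%, 12.8% and 7.61% of all protein-coding genes. In all 4 span classes the interval of the carriers named in both included the share of all protein-coding genes. The interval over the whole list also included it. In IP 1 alone the interval over the whole list lay above the share of all protein-coding genes, and in IP 2 alone it did not. By span, 8 of 11, 9 of 17, 12 of 16 and 12 of 13 carriers were named in IP 1, against 31.3%, 67.3%, 78.4% and 85.9% of all protein-coding genes. In IP 2 the counts were 5 of 11, 10 of 17, 11 of 16 and 13 of 13, against 34.1%, 71.9%, 83% and 90.8%. The interval left out the share of all protein-coding genes under 20 kb in IP 1 (39.0 to 94.0) and in no other span class of either IP.

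**Figure D1:**
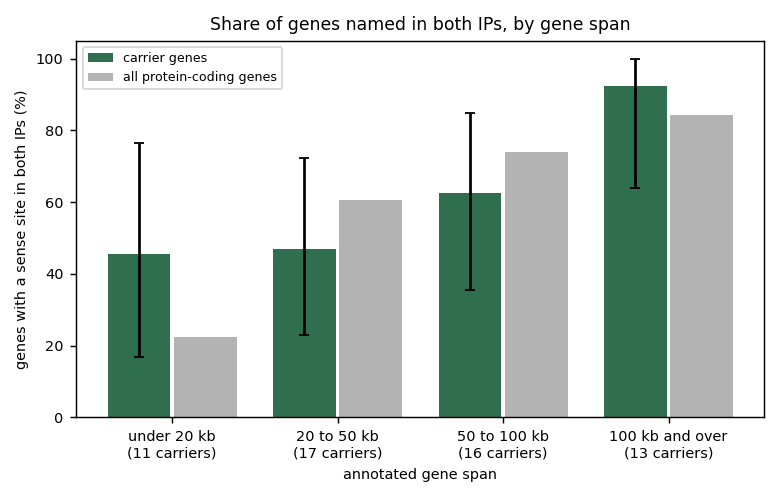
The bars give the percentage of genes with a sense site in both IPs, for the carriers (green, with exact 95% intervals) and for all protein-coding genes (grey), by annotated gene span. The green bars run from 45.5% to 92.3% and the grey bars from 22.3% to 84.4%, and each interval includes the grey bar beside it.

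The number of sites ranked the carriers alike in both IPs, with a Spearman rho of 0.864 over the 57 genes (0.837 over all protein-coding genes) and 0.791 per 10 kb. These are descriptions over genes that share their span and their transcription between the lists. The whole list of IP 2 was 1.38 times as long as that of IP 1, and the carriers' sites were 1.43 times as many. More sites were found in IP 2 for 29 carriers and in IP 1 for 14, and SLC7A6 and SLC22A5 had equal numbers. There were 9 carriers with 10 or more sites in both IPs (SLC2A1, SLC2A9, SLC2A13, SLC4A4, SLC6A6, SLC7A1, SLC25A13, SLC38A1 and SLC39A11). They held 54.5% of the carriers' sites in IP 1 and 54.1% in IP 2. Of these, SLC2A9, SLC2A13, SLC4A4, SLC25A13 and SLC39A11 span 100 kb and over, and the others span less. No share of all protein-coding genes is given for this count, so it is not read as a trait of the carriers.

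**Figure D2:**
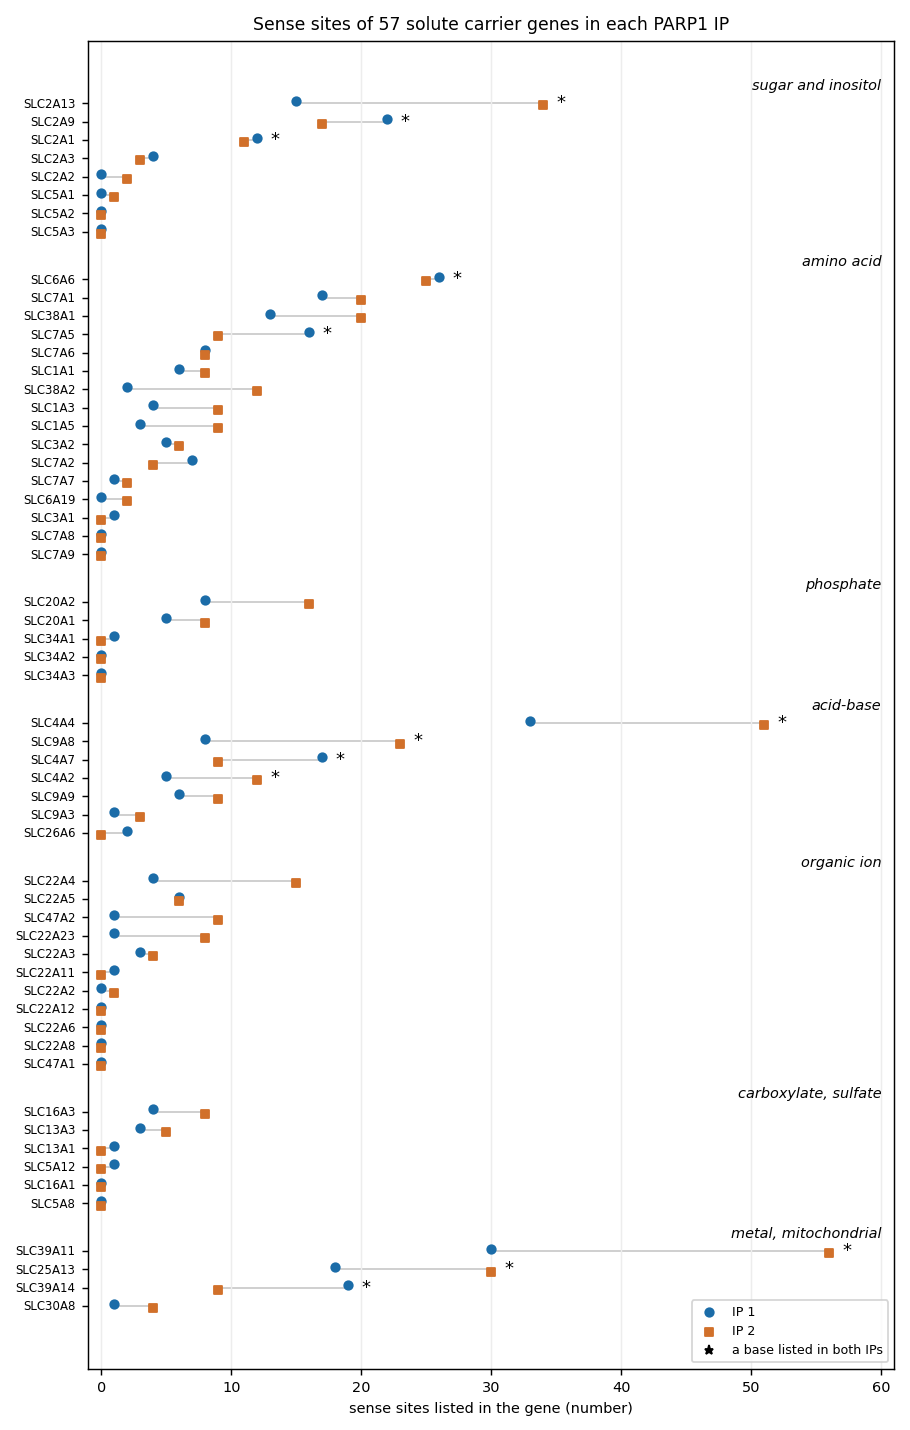
Each row is 1 carrier, grouped by substrate, and the horizontal axis is the number of sense sites in IP 1 (blue circle) and IP 2 (orange square). A star marks the 12 genes with a base listed in both IPs, and SLC39A11 (30 and 56) and SLC4A4 (33 and 51) stand farthest to the right.

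The amino acid carriers were the largest class, and 12 of 16 were named in both IPs (75.0%, interval 47.6 to 92.7), against 50.8% of all protein-coding genes and 74.1% of those from 50 to 100 kb, where the median span of the class lies. SLC6A6, the taurine carrier (chromosome 3, 14402576 to 14489349, plus strand), had 26 sites on its own strand in IP 1 and 25 in IP 2. Its density per 10 kb was at percentiles 95.2 and 91.9 among protein-coding genes of its span class. SLC6A6 and SLC2A1 were the only carriers above percentile 90 in both IPs.

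SLC7A1, the cationic amino acid carrier CAT1, had 17 sites in IP 1 and 20 in IP 2, of which 5 and 2 lay in exons. SLC38A1, the glutamine carrier SNAT1, had 13 and 20, with 4 and 1 in exons. Both genes were thus listed in introns and in exons in both IPs. SLC7A5, the light chain LAT1 for large neutral amino acids (chromosome 16, 87830023 to 87869488, minus strand), had 16 sites in IP 1 and 9 in IP 2, with 8 and 3 of them in exons. SLC7A6, the light chain y+LAT2, had 8 in each IP, with 4 and 1 in exons. SLC3A2, the heavy chain 4F2hc that pairs with both, had 5 and 6, with 0 and 1 in exons. The lists do not say how reads that also match pseudogene copies were assigned, which bears on SLC7A5.

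The 2 genes for the apical cystine and dibasic carrier were nearly without sites. SLC3A1, its heavy chain rBAT, had 1 site in IP 1 and 0 in IP 2, and SLC7A9, its light chain, had 0 and 0. Among basolateral light chains, SLC7A7 (y+LAT1) had 1 and 2, and SLC7A8 (LAT2) had 0 and 0. SLC6A19, the apical neutral amino acid carrier B0AT1, had 0 sites in IP 1 and 2 in IP 2, both in its 3′ untranslated region (UTR). All 5 genes are thus at 2 sites or fewer in each IP. Of them, SLC7A9 and SLC7A8 were named in neither. In the class of SLC7A9, SLC3A1 and SLC6A19 (20 to 50 kb), 21.3% of all protein-coding genes were named in neither. In that of SLC7A7 and SLC7A8 (50 to 100 kb), 12.8% were.

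Among the other amino acid carriers, SLC1A5 (the glutamine carrier ASCT2) had 3 sites in IP 1 and 9 in IP 2, and SLC38A2 (SNAT2) had 2 and 12. Their 6.56 and 8.17 sites per 10 kb in IP 2 were at percentiles 97.6 and 98.6 of their span class, against 85.4 and 78.8 in IP 1. A deletion of several bases is listed base by base. In SLC1A5, 7 of the 9 sites lay within 14 bases of the 5′ UTR, and in SLC38A2, 6 of the 12 were the adjacent bases of 1 intronic deletion. Counting sites within 100 bases once, SLC1A5 had 3 in both IPs, and SLC38A2 had 1 in IP 1 and 7 in IP 2. The glutamate carrier SLC1A1 (EAAT3, apical) had 6 sites in IP 1 and 8 in IP 2, and its relative SLC1A3 (EAAT1) had 4 and 9. SLC7A2, the cationic carrier CAT2, had 7 and 4, and 3 of its 4 exon sites in IP 1 were adjacent deleted bases.

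Among the sugar and inositol carriers, 4 of 8 were named in both IPs, against 50.8% of all protein-coding genes. From 20 to 50 kb, where the median span of the class lies, that share was 60.5%. SLC2A1, the facilitative glucose carrier GLUT1 (chromosome 1, 42925375 to 42959176, minus strand), held 12 sites in IP 1 and 11 in IP 2 on its strand. That is 3.55 and 3.25 sites per 10 kb, percentiles 95.1 and 91.4 of its span class. SLC2A9, the urate carrier GLUT9, had 22 and 17 over 283784 bases, and SLC2A13, a proton-coupled inositol carrier, had 15 and 34 over 351069. By density these long genes were less prominent, at percentiles between 46.1 and 60.5 in both IPs. SLC2A3 (GLUT3) had 4 and 3, and it has a near-identical neighbour, SLC2A14, so the assignment of its reads is uncertain.

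The glucose carriers that define the proximal tubule were at or near 0. SLC5A2, the sodium-glucose carrier SGLT2, had 0 sites in both IPs, and SLC5A1 (SGLT1) had 0 in IP 1 and 1 in IP 2. SLC2A2 (GLUT2), the basolateral exit route for glucose, had 0 in IP 1 and 2 in IP 2. In the class of SLC5A2 (under 20 kb), 56.9% of all protein-coding genes were named in neither IP. In those of SLC2A2 (20 to 50 kb) and SLC5A1 (50 to 100 kb), 21.3% and 12.8% were. SLC5A3, the inositol carrier SMIT1, was also assigned 0 sites, but its span (chromosome 21, 34073570 to 34106262) lies within MRPS6 on the same strand. The span held 12 sense-strand sites in IP 1 and 13 in IP 2, all assigned by the lists to introns of MRPS6. The value of 0 for SLC5A3 is therefore a matter of assignment.

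The acid-base carriers had 6 of 7 genes named in both IPs (85.7%, interval 42.1 to 99.6), an interval that includes the 50.8% of all protein-coding genes and the 74.1% of those from 50 to 100 kb. SLC4A4, the basolateral sodium-bicarbonate cotransporter NBCe1 (chromosome 4, 71062667 to 71572087, plus strand), held 33 sites in IP 1 and 51 in IP 2 on its strand, percentiles 55.2 and 61.7 by density. Its sites began 151 kb into the gene in IP 1 and 130.1 kb in IP 2. The principal transcript, the 1 ranked first by the annotation, starts 124 kb into the span, and the stretch before it held 0 sites assigned to SLC4A4 in both IPs. Sites on the same strand that the lists do not assign to SLC4A4 numbered 3 in IP 1 and 1 in IP 2 in this stretch. SLC4A7, the related cotransporter NBCn1, had 17 sites in IP 1 and 9 in IP 2. The 27.7 kb before the start of its principal transcript held 7 and 5 of them. The stretches of both genes were singled out after the values were seen.

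SLC4A2, the chloride-bicarbonate exchanger AE2, is short for a member of this class (19318 bases on chromosome 7). It had 5 sites in IP 1 and 12 in IP 2, or 2.59 and 6.21 per 10 kb, percentiles 88.1 and 97.3. SLC9A8, the sodium-proton exchanger NHE8, had 8 and 23, and 8 of the 23 were the adjacent bases of 1 deletion with 2 tags. SLC9A9, an endosomal exchanger, had only 6 and 9 over 583310 bases, the longest span among the carriers. SLC9A3 (NHE3), the main apical sodium-proton exchanger of the proximal tubule, had 1 and 3, the 3 within 61 bases. SLC26A6, an apical chloride and oxalate exchanger, had 2 and 0.

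The phosphate carriers divided by family. SLC20A1 and SLC20A2, the broadly expressed carriers PiT-1 and PiT-2, had sites in both IPs (5 and 8 for SLC20A1, 8 and 16 for SLC20A2), each with exon sites in both. In contrast, the 3 genes of the SLC34 family, which carry most phosphate across epithelial apical membranes, had 1 site in all: SLC34A1 (NaPi-IIa) had 1 in IP 1 and 0 in IP 2, and SLC34A2 and SLC34A3 had 0 in both. SLC34A3 spans 5798 bases and SLC34A1 19614. In the class of genes under 20 kb, 56.9% of all protein-coding genes were named in neither IP, and in the class of SLC34A2 (20 to 50 kb) 21.3% were.

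Organic ion carriers had 5 of 11 genes named in both IPs (45.5%, interval 16.7 to 76.6), near the 50.8% of all protein-coding genes. The interval also includes the 60.5% of those from 20 to 50 kb, where the median span of the class lies. SLC22A4 and SLC22A5 are neighbours on chromosome 5 that encode OCTN1 and the carnitine carrier OCTN2. SLC22A4 had 4 sites in IP 1 and 15 in IP 2, and SLC22A5 had 6 and 6. Of the 15, 4 were adjacent bases of 1 deletion. SLC47A2 (MATE2) had 1 and 9, of which 5 were 1 deletion, and SLC22A23, an orphan of the family, had 1 and 8. SLC22A3 (OCT3) had 3 and 4.

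Several carriers of organic anions and cations had no site or 1. SLC22A6 (OAT1), SLC22A8 (OAT3), SLC22A12 (the urate carrier URAT1) and SLC47A1 (MATE1) were named in neither IP and had no antisense site. SLC22A2 (OCT2) had 0 sites in IP 1 and 1 in IP 2, and SLC22A11 (OAT4) had 1 and 0. By span, 56.9% of all protein-coding genes were named in neither in the class of SLC22A12 (under 20 kb), 21.3% in that of SLC22A6 and SLC22A8 (20 to 50 kb) and 12.8% in that of SLC47A1 (50 to 100 kb). SLC47A1 lies on chromosome 17 (19495385 to 19579034, plus strand) near SLC47A2 (19678288 to 19718979, minus strand).

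Carboxylate and sulfate carriers had 2 of 6 genes named in both IPs (33.3%, interval 4.33 to 77.7), against 50.8% of all protein-coding genes. The interval also includes the 74.1% of those from 50 to 100 kb, where the median span of the class lies. SLC16A3, the lactate exporter MCT4, had 4 sites in IP 1 and 8 in IP 2, with up to 4 and up to 5 mutated tags at 1 base, all in introns. SLC16A1 (MCT1), a broadly expressed lactate carrier, had 0 in both and no antisense site over 45167 bases. For genes of 20 to 50 kb, 21.3% of all protein-coding genes were named in neither. SLC13A3, the basolateral dicarboxylate carrier NaDC3, had 3 and 5. SLC13A1 and SLC5A12, apical carriers of sulfate and of monocarboxylates, had 1 site each in IP 1 and none in IP 2, and SLC5A8, another monocarboxylate carrier, had none.

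The 4 metal and mitochondrial carriers were named in both IPs, against 50.8% of all protein-coding genes, and the interval for 4 of 4 begins at 39.8%. At 100 kb and over, where the median span of the class lies, 84.4% of all protein-coding genes were named in both. SLC39A11, the zinc carrier ZIP11 (446764 bases on chromosome 17), had 30 sites in IP 1 and, as the most of any carrier there, 56 in IP 2, at percentiles 56.3 and 69.2 by density. In IP 2, 24 of its 55 intronic sites placed on the principal transcript (43.6%) lay in intron 7, which makes up 19.7% of its intron length, against 5 of 30 (16.7%) in IP 1. Intron 7 was singled out after the values were seen. Counting sites within 100 bases once, the 56 sites of the gene in IP 2 were 43. SLC25A13, the mitochondrial aspartate-glutamate carrier citrin, had 18 and 30. SLC39A14 (ZIP14) had 19 sites in IP 1 and 9 in IP 2, which put its density at percentiles 94.5 and 66.1. SLC30A8, a zinc carrier of secretory granules, had 1 and 4 over 226442 bases.

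By membrane side, 6 of 21 apical carriers (28.6%, interval 11.3 to 52.2) and 14 of 21 basolateral carriers (66.7%, interval 43.0 to 85.4) were named in both IPs. Both intervals include the 50.8% of all protein-coding genes and overlap each other, and the difference was not tested, because genes are not replicates of a condition. A further 8 apical carriers and 2 basolateral carriers were named in 1 IP, and 7 and 5 in neither. The apical carriers held 33 sites in IP 1 and 60 in IP 2, against 153 and 169 in basolateral carriers. Of the apical sites, 12 in IP 1 and 31 in IP 2 were in SLC20A2 and SLC22A4, whose side could be assigned otherwise. Without these genes, 4 of 19 apical carriers were named in both IPs, with 21 sites in IP 1 and 29 in IP 2. No interval is given for this smaller list, and the inclusion of 50.8% is shown for all 21 apical carriers only. Apical genes had a median span of 40692 bases and basolateral genes 48599. In the class of both medians (20 to 50 kb), 60.5% of all protein-coding genes were named in both. The apical interval lies below that share, and the basolateral interval includes it. Within 20 to 50 kb, 3 of 7 apical and 5 of 10 basolateral carriers were named in both, against the same 60.5%. Within 50 to 100 kb the counts were 2 of 7 and 3 of 4, against 74.1%. Under 20 kb they were 0 of 6 and 1 of 1, against 22.3%, and at 100 kb and over 1 of 1 and 5 of 6, against 84.4%. The interval left out the share of all protein-coding genes for the apical carriers of 50 to 100 kb (3.67 to 71.0), and in no other class of either side. The 11 carriers with no side assigned and the 4 intracellular carriers were all named in both IPs. Expression in the line was not measured here, and how far it goes with the counts was not tested.

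**Figure D3:**
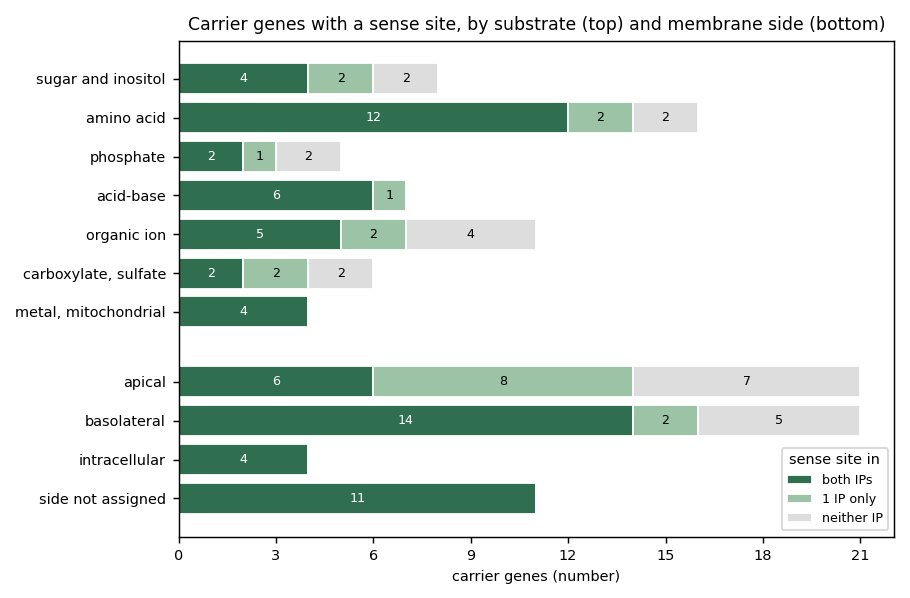
Bars count the carriers with a sense site in both IPs (dark), in 1 IP (light) or in neither (grey), by substrate class above and by membrane side below. The acid-base (6 of 7) and amino acid (12 of 16) bars are mostly dark, and the apical bar has 6 of 21 in the dark part against 14 of 21 for the basolateral bar, with no test between them.

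A base listed in IP 1 and again in IP 2 on the gene's strand occurred in 12 carriers (21.1%, interval 11.4 to 33.9), against 14.1% of all protein-coding genes. By span the counts were 1 of 11, 2 of 17, 3 of 16 and 6 of 13, against 3.95%, 12.7%, 20.9% and 33.9% of protein-coding genes. Among the 12 were 0 of 21 apical carriers and 6 of 21 basolateral ones, against the same 14.1%. Apical carriers had fewer sites that could recur, with 33 in IP 1 against 153 in basolateral carriers. Of the rest, 4 had no side assigned (SLC2A13, SLC6A6, SLC9A8 and SLC39A14) and 2 were intracellular. The counts by side therefore depend on the number of sites and on how these genes were assigned, and their difference was not tested. Of the carriers' sites, 23 of 341 in IP 1 (6.74%, interval 4.32 to 9.95) recurred in IP 2, against 4.96% for all protein-coding genes. The same 23 bases were 4.71% of the carriers' sites in IP 2, against 4.11%. These shares differ by less than the counting error of the carriers.

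SLC2A1, SLC4A2, SLC6A6 and SLC39A11 had 3 such bases each. SLC4A4, SLC7A5 and SLC25A13 had 2 each, and SLC2A9, SLC2A13, SLC4A7, SLC9A8 and SLC39A14 had 1 each. The mutation type was the same in both IPs at all 23, with 18 substitutions, 2 deletions and 3 insertions. They lay in introns at 19 of the 23.

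The depth behind most of them was low, since 13 of the 23 had 2 of 2 tags mutated in both IPs. Every tag was mutated in both IPs at 19 of the 23, and the share over all shared bases of protein-coding genes was 83.7%. The lists do not give the base that replaced the annotated one, and whether the DNA of the line differs from the reference at these bases was not tested.

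The shared base with the most mutated tags in 1 IP lay in an intron of SLC6A6 (chromosome 3, 14434989), with 2 of 2 tags mutated in IP 1 and 8 of 8 in IP 2. The other 2 shared bases of SLC6A6 lay at 14434402 and 14436669, and intron 2 of the gene held 12 sites in IP 1 and 9 in IP 2. In SLC2A1 an intronic insertion (chromosome 1, 42940595) had 4 of 4 tags in IP 1 and 3 of 3 in IP 2. In SLC4A4 an intronic substitution (chromosome 4, 71337335) had 3 of 3 in both. In SLC25A13 the bases 96310130 and 96320135 of chromosome 7 had 4 of 4 and 2 of 2 tags in IP 1 and 2 of 2 in IP 2 at each. The site of SLC4A7 (chromosome 3, 27407911) had 2 of 2 in IP 1 and 4 of 4 in IP 2.

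**Figure D4:**
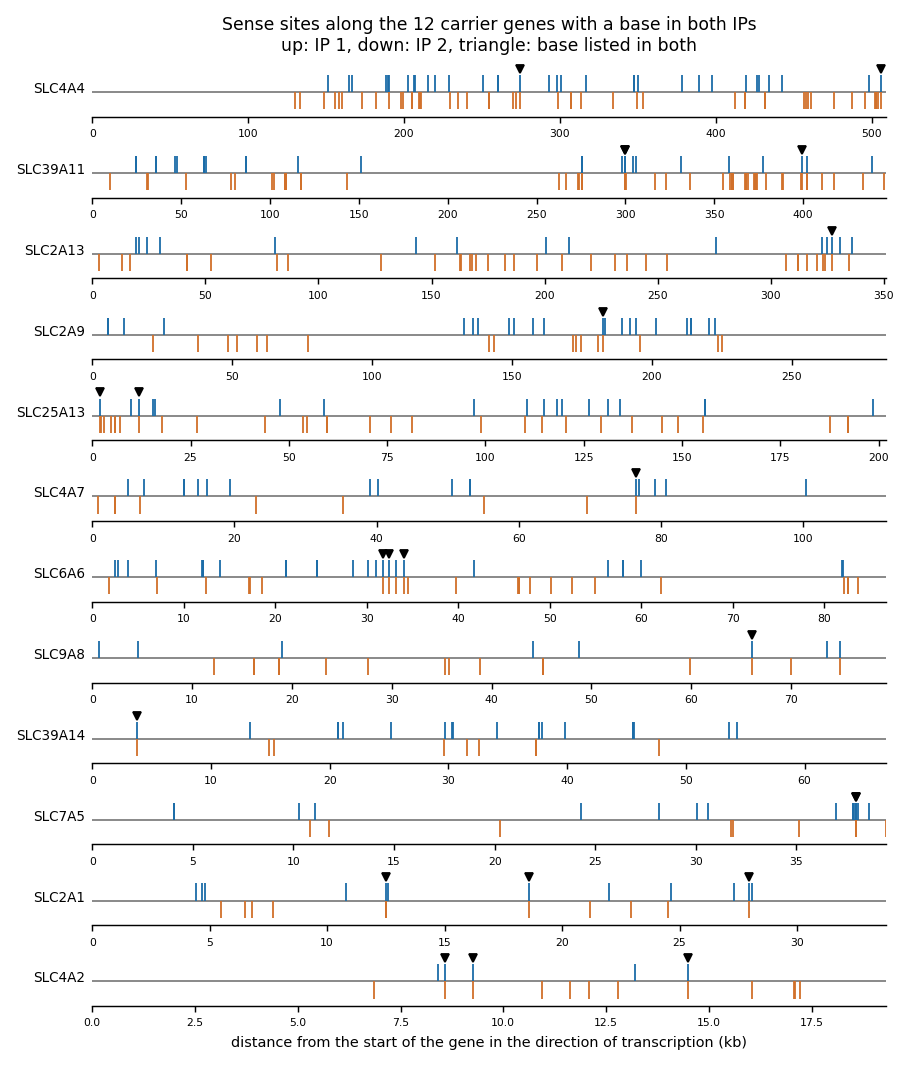
Each line is 1 of the 12 carriers with a base listed in both IPs, drawn from the start of the gene in the direction of transcription in kb, with the sites of IP 1 as ticks upward, those of IP 2 as ticks downward and shared bases as triangles. Sites assigned to another gene are not drawn. The first 124 kb of SLC4A4 holds no site assigned to it, and the 3 triangles of SLC6A6 stand together near 32 kb.

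Exons held 38 of the 341 sense sites in IP 1 (11.1%, interval 8.01 to 15.0) and 39 of 488 in IP 2 (7.99%, interval 5.74 to 10.8), against 9.36% and 8.77% for all protein-coding genes. An exon site in both IPs was found in 9 carriers (15.8%), against 14.6% of all protein-coding genes. The 9 were SLC2A3, SLC4A2, SLC4A4, SLC7A1, SLC7A5, SLC7A6, SLC20A1, SLC20A2 and SLC38A1. Of these, 3 had a shared exon base. With sites placed by coordinates and any annotated exon of the gene counted, 16 carriers had an exon site in both IPs. Exons then held 15.2% and 12.5% of the sites. No share of all protein-coding genes is given for that placement, and the values that follow use the regions of the lists. Deletions made up 57.9% of the carriers' exon sites in IP 1 (interval 40.8 to 73.7) and 53.8% in IP 2 (interval 37.2 to 69.9), against 38.8% and 41.2% over all protein-coding genes. In introns deletions made up 20.8% and 23.4% of the carriers' sites, against 24.4% and 25.1%. The exon share rests on few events, because the 5 deleted bases of SLC7A1 in IP 1 and the 6 of SLC1A5 in IP 2 are adjacent bases with the same tag counts. Of the carriers' deleted exon bases, 6 of 22 in IP 1 and 8 of 21 in IP 2 stood in a run of 4 or more identical bases, that is 27.3% and 38.1%, against 24.1% and 23% over all protein-coding genes.

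The exon sites can be read in sequence. The lines below give the GENCODE release 29 transcript around the 3 shared exon sites, 25 bases each in the direction of transcription, with the listed base or bases in capitals. They are shown because they are the exon positions that recurred.
SLC4A2, coding sequence: gggagagaagacGcaggacctgata
SLC4A4, 3′ UTR: gtaaaaattgtaTtgtatataatgt
SLC7A5, 3′ UTR: acagccctgagtGTcccaagccggg
At SLC4A2 (chromosome 7, 151071699, plus strand), where the window crosses an exon junction between 151071604 and 151071711, the substituted G had 5 of 6 tags mutated in IP 1 and 2 of 2 in IP 2. At SLC4A4 (chr4:71568728-71568752, plus strand) the substituted T had 2 of 2 in each IP. At SLC7A5 (chr16:87831505-87831529, minus strand) the deleted GT had 3 of 5 tags in IP 1 and 2 of 4 in IP 2. The deleted pair is the second of 2 tandem copies of GT.

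The exon sites with the most mutated tags in 1 IP, and the longest exon deletion, were chosen after their values were seen, and they are shown because each was listed in 1 IP and not in the other.
SLC7A1, 5′ UTR, IP 1: cgccccgcccCGCCCggtctcgccg
SLC20A1, 5′ UTR, IP 2: ctccagccgctgTcgcctcgatctc
SLC22A5, 3′ UTR, IP 2: tccttcagtgacAaaaggcctttgc
SLC7A5, 3′ UTR, IP 1: cctgctctgggaCgtggacatgcct
SLC7A6, 3′ UTR, IP 2: cactgtcatcctGggccgagaagaa
SLC1A5, 5′ UTR, IP 2: tcccagctccTAGGGCcaaggaacc
In SLC7A1 (chr13:29595497-29595521, minus strand) 5 bases were deleted in 6 of 7 tags, next to a second copy of the same 5 bases. In SLC22A5 (chr5:132394349-132394373, plus strand) an A of a run of 4 was deleted in 4 of 5 tags. The SLC1A5 window (chr19:46788234-46788258, minus strand) lost 6 bases in 3 of 9 tags, with no copy of them beside it.

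The others are substitutions. The T of SLC20A1 (chr2:112646073-112646097, plus strand) was mutated in 5 of 11 tags. The C of SLC7A5 (chr16:87830857-87830881, minus strand) and the G of SLC7A6 (chr16:68298832-68298856, plus strand) were mutated in 4 of 7 tags each. In all 3 some tags lacked the mutation. SLC39A14 (chromosome 8), not shown in sequence, had 2 coding bases, 22404866 and 22404905, with 4 of 4 tags mutated in IP 1 at each. Over all sense sites of the carriers, every tag was mutated at 87.1% in IP 1 and 85.9% in IP 2, against 84.8% and 84.0% for all protein-coding genes.

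Along the gene the carriers' sites showed no end that stood apart. Of 5 equal parts of the span, the first held 23.8% of them in IP 1 and 19.3% in IP 2, and the last 20.2% and 21.7%, against 20.1% and 20.3% and 20.5% and 20.5% for all protein-coding genes. The first intron of the principal transcript held 21.7% of the carriers' intronic sites in IP 1 and 20.5% in IP 2, where it made up 22.7% and 20.4% of intron length weighted by the sites of each gene. For all protein-coding genes the first intron held 27.1% and 26.8%, with 26.2% and 25.7% of length. In SLC20A2 the first intron (56.8% of intron length) held 5 of 6 intronic sites in IP 1 and 14 of 15 in IP 2. In SLC2A1 the first 2 introns held all 11 in each IP, with 6 and 5 of them in both. These introns make up 50.8% and 39.9% of its intron length, so most of that length lies there. SLC20A2 and SLC2A1 were singled out after the values were seen.

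Other genes of tubular transport were taken from a list of 45, among them pumps, channels, ABC carriers, scaffolds, kinases and further solute carriers. Of these, 27 (60%) were named in both IPs, 3 in IP 1 only, 6 in IP 2 only and 9 in neither, close to the carriers' own counts and against 50.8% of all protein-coding genes. Their median span was 50014 bases, and 74.1% of all protein-coding genes from 50 to 100 kb were named in both. Their median was 0.17 sites per 10 kb in IP 1 and 0.40 in IP 2. This was below the 0.49 and 0.60 of the carriers and the 0.27 and 0.41 of all protein-coding genes, with no matching for span. ABCC4, an apical organic anion pump, had 67 sites in IP 1 and 85 in IP 2 with 6 shared bases, more than any of the 57 carriers. Of the kinases that regulate ion cotransporters, STK39 had 27 sites in IP 1 and 56 in IP 2 with 2 shared bases, and WNK1 had 29 and 47 with 1. AQP1, the water channel of the proximal tubule, CA4, CLTRN (the partner of SLC6A19 in the brush border), SLC6A20 and SLC22A7 were among those named in neither.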

How the data were processed

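RNA immunoprecipitation and sequencing was analysed from 2 PARP1 IPs of HK-2 cells. Per the labels' protocols, beads with a Flag antibody were washed and paired-end libraries were made by random-primed reverse transcription. TopHat2 and bcl2fastq are named, with GRCh38, per the submitters' processing notes. The site caller and its thresholds were not given in the sources used here. Per the file headers, the deposited values are counts of tags and of mutated tags at 1-base sites, and an FDR, a q-value or p-value type of measure. Tags added up to 419675 over the list of IP 1 and 572870 over that of IP 2, which is not library depth, and amplified reads are not independent molecules.

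Genes, regions and strands were taken from the lists. Spans, introns and sequences came from GENCODE release 29. The principal transcript was the basic 1 of best APPRIS rank, then of longest coding sequence. Percentiles rank the density of sites per 10 kb within a span class of protein-coding genes (edges 20, 50 and 100 kb). Counting was tested on simulated sites. Python 3.11.15, pandas 2.3.3 and scipy 1.17.1 were used.

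Substrate classes and membrane sides were assigned from textbook knowledge. The members, classes and lists were chosen with earlier results of these data known. Every member was accounted for, and those with a shared base, an exon site in both IPs or among the 10 highest densities are given in full. The alternatives were other thresholds, mutation types, regions, strands, gene assignments and overlaps, and leaving out each IP. Some genes of the comparison lists are counted but not reported by name here.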

Additional observations from a re-analysis of the deposited data

Results flagged for a closer look

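Sites on the strand opposite to the gene entered no count of sites above. An antisense site in both IPs was found in 22 of the 57 carriers (38.6%, interval 26.0 to 52.4), against 19.2% of all protein-coding genes. By span from short to long, the counts were 1 of 11, 5 of 17, 6 of 16 and 10 of 13, against 3.93%, 13.9%, 26.3% and 55.7%, and within each span class the interval of the carriers included the share of all protein-coding genes. Only 3 carriers had more than 3 antisense sites in both IPs. SLC4A4 had 9 in IP 1 and 11 in IP 2. SLC9A9 had 9 and 7, against 6 and 9 sense sites. SLC39A11 had 6 and 14. The annotation holds genes on the opposite strand within all 3 spans, among them SLC9A9-AS1 and SLC9A9-AS2, and their part in these sites was not tested. SLC7A8 and SLC34A2 had antisense sites alone, with 1 and 0 in IP 1 and 3 and 1 in IP 2.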

How the results depend on the processing

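No paired analysis was possible because the numbered inputs have no values here and the 2 IPs are replicates of 1 group. Sites were few and shallow, which limits every count. With 1 IP at a time, 39 to 41 carriers were named and 16 to 19 had an exon site. With sites below the most common FDR of each list, 128 sites in IP 1 and 205 in IP 2 were left, with medians of 0 and 0.0790 per 10 kb and 21.9% and 11.2% in exons; 4 carriers had a shared base and 5 an exon site in both. With 3 or more tags, 76 and 111 sites were left, with medians of 0 and 0 and 31.6% and 18.9% in exons; 18 carriers were named in both IPs and 3 had a shared base. With substitutions only, the medians were 0.25 and 0.49, exons held 6.25% and 5.12%, and 4 carriers had an exon site in both. With deletions and insertions only, 101 and 156 sites were left, with medians of 0 and 0.0514 and 22.8% and 14.1% in exons; 21 carriers were named in both, 3 had a shared base and 3 an exon site in both. With exon sites only, 38 and 39 sites were left, the medians were 0 and 0, 9 carriers were named in both, 3 had a shared base and 10.5% of the sites of IP 1 recurred. These settings leave fewer sites by construction. Placed by coordinates, 16 carriers had an exon site in both and exons held 15.2% and 12.5%. With either strand the median of IP 2 was 0.90. Without the 24 carriers that overlap another gene on their strand, 19 of 33 were named in both, 5 had a shared base, the sites numbered 170 and 230, and in IP 2 the median was 0.81 and exons held 13.5%. In settings added after the data were seen, counting sites within 100 bases once left 7.99% in exons in IP 1, and leaving out SLC20A2, SLC22A4 and SLC7A2, of uncertain side, left 21 and 29 apical sites. Matching within 10 bases moved no result by more than its counting error or 1.5 times.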
